A study of Sus scrofa with 22 samples.

Results

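IsomiRs with a shifted 5′ start are sequence variants of a miRNA that begin 1 to 3 bases before or after its usual first base. They were collected here from small RNA counts of pig subcutaneous fat. For each miRNA name the sequence with the largest count summed over the 22 libraries was taken as the leading sequence. A sequence was a member when its first 14 bases equalled those of the leading sequence displaced by 1 to 3 bases, either after loss of the first bases or after gain of bases in front. The rule found 789 of 8409 named sequence entries (787 different sequences), from 87 of 250 miRNA names. Together they held 1019632 of 37002566 named reads, or 2.76%. Members were chosen by these summed counts, which decide which start is called usual, so the level of each share below is a description.

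The libraries came from female pigs of 3 breeds, aged 6 months, whose subcutaneous fat was classed in the labels as thick or thin. Pietrain contributed 4 thick and 3 thin libraries, Large White 4 and 4, and Hampshire 5 and 2. The labels give no allele, treatment or animal number, so p-values measure only the spread between these libraries. Totals ran from 431542 to 3137757 reads, and 153 to 479 member entries were detected per library.

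A miRNA is cut from its hairpin by Drosha and Dicer and is then held by Argonaute. Bases 2 to 8 from the 5′ end, the seed, pair with target mRNAs, so a start moved by 1 base gives another seed, while changes at the 3′ end leave the seed as it was. Alternative starts are well known for several miRNAs, among them the endothelial miR-126-3p and the miR-10 family.

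The sequences below are the ones that carry the findings, each as the most counted sequence of its start, written 5′ to 3′ with the seed in capitals. The first set holds the miRNAs with the highest shifted shares among those with at least 1000 reads in the median library.

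miR-140-3p, leading: aCCACAGGguagaaccacggac
miR-140-3p, 1 base gained: uACCACAGgguagaaccacgga
miR-214-3p, leading: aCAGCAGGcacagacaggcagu
miR-214-3p, 1 base gained: uACAGCAGgcacagacaggcagu
miR-29a, leading: cUAGCACCaucugaaaucgguu
miR-29a, 1 base lost: uAGCACCAucugaaaucgguu
miR-199ab-3p, leading: aCAGUAGUcugcacauugguu
miR-199ab-3p, 1 base gained: uACAGUAGucugcacauugguu
miR-10a-5p, leading: uACCCUGUagauccgaauuugu
miR-10a-5p, 1 base lost: aCCCUGUAgauccgaauuuguga
miR-101, leading: uACAGUACugugauaacuga
miR-101, 1 base gained: gUACAGUAcugugauaacugaa
miR-10b, leading: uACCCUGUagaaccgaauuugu
miR-10b, 1 base lost: aCCCUGUAgaaccgaauuugug
miR-126-3p, leading: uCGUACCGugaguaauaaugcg
miR-126-3p, 1 base gained: cUCGUACCgugaguaauaaugcg
miR-126-3p, 1 base lost: cGUACCGUgaguaauaaugc
miR-378, leading: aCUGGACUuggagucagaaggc
miR-378, 1 base lost: cUGGACUUggagucagaaggcu
miR-429, leading: uAAUACUGccugguaaugaugac
miR-429, 1 base lost: aAUACUGCcugguaaugaugacu
miR-7134-3p, leading: aUGCGGAAccugcggauacgg
miR-7134-3p, 1 base gained: gAUGCGGAaccugcggauacgg
miR-23b, leading: aUCACAUUgccagggauuaccacu
miR-23b, 1 base lost: uCACAUUGccagggauuaccacu

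The second set is shown because its shifted shares differed between breeds while shifted reads were a small part of each miRNA, or because a seed is shared.

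miR-99a, leading: aACCCGUAgauccgaucuugu
miR-99a, 1 base gained: aAACCCGUagauccgaucuugu
miR-100, leading: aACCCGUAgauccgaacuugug
miR-100, 1 base lost: aCCCGUAGauccgaacuugug
miR-26a, leading: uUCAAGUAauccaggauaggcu
miR-26a, 1 base gained: cUUCAAGUaauccaggauaggcu
miR-26a, 1 base lost: uCAAGUAAuccaggauaggcu
miR-148a-3p, leading: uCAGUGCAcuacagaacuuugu
miR-148a-3p, 1 base gained: cUCAGUGCacuacagaacuuugu
miR-148a-3p, 1 base lost: cAGUGCACuacagaacuuugu
miR-29b, leading: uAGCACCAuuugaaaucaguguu
miR-29b, 1 base gained: cUAGCACCauuugaaaucagug

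Before the results, one point on the labels concerns Large White thick 1 and thin 1. The log2 fold changes of the authors' deposited tables were set against log2 differences, thin minus thick fat, computed from the counts, which gave r = 0.98 over 2022 sequences in Pietrain and r = 0.97 over 1495 in Hampshire. In Large White the same r over 1888 sequences was -0.12 with the labels as given and 0.97 with thick 1 and thin 1 exchanged. The labels were kept. For comparisons that include Large White, the number of shifted classes called is also given without both libraries. Values of single classes mostly include both. Small counts carry a further limit. The smallest count above 0 in the tables is 6, so a sequence listed at 0 may have had up to 5 reads.

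Shifts were almost all by a single base. Losing 1 base accounted for 582304 member reads in 375 entries from 56 miRNAs, and gaining 1 base for 434367 reads in 376 entries from 53 miRNAs. Gains of 2 bases held 2586 reads in 29 entries, losses of 2 bases 310 reads in 6 entries, and gains of 3 bases 65 reads in 3 entries. No entry had lost 3 bases, and none was displaced by 4, just outside the rule. Entries that matched over 13 bases only numbered 12 and held 256 reads.

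A few miRNAs supplied most of these reads. miR-10b and miR-126-3p together held 51.2% of all member reads, and the 5 largest contributors, with miR-199ab-3p, miR-140-3p and miR-99a, held 73.7%. Among the 56 miRNAs with at least 1000 reads in the median library, 9 had a median shifted share above 10%, 12 between 1 and 10%, and 26 under 1%. The remaining 9 had no member. Of the members, 107 were present in every library and 146 in a single one.

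miR-140-3p, which lies within the WWP2 gene and is best known from cartilage, had the highest median share of shifted starts among miRNAs with at least 1000 reads in the median library. Its reads with a gained U were 43.8% ± 1.64 of the miRNA in Pietrain (SD, n = 7), 46.9% ± 2.38 in Large White (SD, n = 8) and 49.98% ± 1.58 in Hampshire (SD, n = 7). Over all libraries the lowest was 41.9%, the median 46.9% and the highest 52.0%. The usual start is that of the most counted single sequence, with 21426 reads against 16349 for the most counted sequence with a gained base. In the Hampshire libraries thick 1, thick 2, thick 3 and thin 2 the longer start held more than 50% of the reads.

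The stromal miR-214-3p and miR-199ab-3p, which share a primary transcript in mesenchymal cells, also gained a U. The shifted share of miR-214-3p ran from 35.5% to 42.7% with a median of 37.8% in 15 libraries, and the miRNA was listed at 0 in all 7 Hampshire libraries. That of miR-199ab-3p ran from 21.5% to 30.4% with a median of 25.0% in 15 libraries. It was listed at 0 in 3 Pietrain thick, 3 Large White and 1 Hampshire library, while its median library held 13241 reads. Whether a listing at 0 means absence of either miRNA was not tested. In the 9 libraries with both, miR-214-3p had the higher share each time.

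miR-101, a repressor of the chromatin gene EZH2, gained a G in 98.4% of its reads with 1 gained base. Its shifted share had a median of 19.5% and ran from 15.1% in Pietrain thin 3 to 23.4% in Large White thick 3. For miR-7134-3p, also with a gained G, the median was 6.13% (range 3.69% to 7.70%). That share fell to a median of 3.33% when sequences with a mean count under 50 were left out.

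The miR-10 family, encoded in the HOX clusters, lost its first U. miR-10b had a median shifted share of 13.7% (range 11.7% to 15.6%, n = 22) and miR-10a-5p of 23.9% (range 20.8% to 26.2%, n = 20). The 2 miRNAs differ at 1 position and share the seed of the usual start as well as that of the shifted start, CCCUGUA. miR-10a-5p had the higher share in 20 of 20 libraries where both had reads, and their ranges did not overlap.

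miR-126-3p, hosted by the endothelial gene EGFL7, had both kinds of shift. Reads with a gained base made 7.33% of its summed reads and reads with a lost base 5.22%. The summed share stayed between 10.8% and 13.3%, with a median of 12.6%. Of the reads with a gained base, 99.8% carried a C.

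Several other miRNAs lost their first base. miR-29a, which targets collagen mRNAs, had a median shifted share of 34.4%, with Large White thick 3 lowest at 28.1% and Pietrain thin 1 highest at 45.3%. miR-378, which lies in an intron of the PGC-1β gene, had a median of 10.24% (range 8.45% to 12.1%). For miR-23b the median was 5.74% (range 4.16% to 7.21%). The epithelial miR-429 had a median of 9.06% in 18 libraries, with a wide range of 6.63% to 19.5%. Its leading sequence is identical to that of miR-200b in the tables, so those 2 names are uncertain.

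Some members cannot be given to 1 name by sequence. In 10 member entries, with 11757 reads or 1.15% of member reads, the whole sequence also lies inside the leading sequence of another name. They include 9935 of the 10641 reads of miR-29a with a lost base, which lie inside the leading sequence named miR-29c. Members that run past the end of the other leading sequence are not counted, so the share is a lower bound. For miR-429, 64 of 3193 reads with a lost base were counted, although its leading sequence is also that of miR-200b. For miR-23a, 571 of the 784 reads with a lost base lie inside that of miR-23b.

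Several pairs of closely related miRNAs differed in how often the start moved. miR-23b was above miR-23a, whose median was 0.461%, in 22 of 22 libraries. The miR-23a share includes the reads that also lie inside the miR-23b leading sequence. let-7g, with a median of 0.542%, was above let-7i-5p at 0.0582% in 22 of 22 libraries. miR-27b-3p, at 0.256%, was above miR-27a, at a median of 0%, in 22 of 22. The median library held 31135 reads of miR-27b-3p and 7313 of miR-27a, and counts under 6 are listed at 0. How far that limit lowers the share of miR-27a was not tested. miR-125b and miR-125a were both near 0, with medians of 0.0268% and 0%, and the first was above the second in 13 of 22 libraries. miR-99a and miR-100, which differ at 1 position, moved in opposite directions. The first gained an A (median shifted share 2.83%), the second lost its first A (median 2.19%). These pairs were picked for likeness of sequence, and their shares are a description.

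In the larger start classes the gained base was nearly fixed for each miRNA. Among the miRNAs with at least 1000 reads in the median library, 22 start classes held at least 1% of their miRNA's reads, 12 with a lost and 10 with a gained base. In the 12 with a lost base the member rule itself sets the first base. In the 10 with a gained base, 1 base made up 97.7% to 100% of the reads. That base was U for 4 of them (miR-140-3p, miR-199ab-3p, miR-214-3p and miR-146a-5p), and C, G or A for 2 each. The rule set no condition on a gained base. Some gained-base classes under 1% were less fixed, with 1 base at 83.2% of the reads for let-7a and 82.1% for let-7c. The most counted sequence of the let-7c class also differs from the leading sequence further along, so that class may pool different miRNAs. Hairpin sequences were not used here, so whether a gained base is encoded in the hairpin was not tested. The shifted reads of these 22 classes began with A in 10, U in 6, C in 4 and G in 2. Their leading sequences began with A in 9, U in 9, C in 4 and G in none.

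The 3′ end often moved with the start. Reads of miR-10b with a lost base ended on average 0.96 bases further along than reads with the usual start, in 22 of 22 libraries. Their mean length was 22.1 bases against 22.2. The same held for miR-429 at 1.01 bases in 18 of 18 libraries, miR-23b at 0.80 in 22 of 22, miR-10a-5p at 0.77 in 20 of 20, and miR-378 at 0.49 in 22 of 22. Among gained starts, reads of miR-101 ended 1.17 bases earlier, of miR-214-3p 0.75 earlier, of miR-140-3p 0.58 earlier and of miR-99a 0.42 earlier, and in no library did they end further along. These isomiRs therefore changed in mean length by less than the 1 base by which the start moved. The length difference from reads with the usual start was largest for miR-378 at -0.51 bases and miR-99a at 0.58. In those the end followed the start only in part.

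miR-126-3p behaved differently. Its reads with a lost base had a mean length of 20.4 bases, those with the usual start 21.4 and those with a gained base 22.4. Their mean ends differed from that of the usual start by 0.00 and 0.04 bases. miR-199ab-3p, with ends 0.08 bases earlier, miR-7134-3p, 0.10 earlier, and miR-29a, 0.22 earlier, were closer to miR-126-3p than to miR-10b.

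Most shifted seeds led no other miRNA in these tables. Of 125 shifted start classes, 9 had a seed that is also the seed of the leading sequence of another name. Among the 55 classes with at least 1% of their miRNA's reads the number was 2. The seed of miR-29a with a lost base, AGCACCA, is that of miR-29b and miR-29c, and the seed of miR-29b with a gained base is that of miR-29a. The other 7 were rare. They include 5 let-7 members with a lost base, whose seed equals that of miR-196a and miR-196b-5p, with up to 224 reads each over all libraries.

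Lists of miRNAs were read by counts. Of 14 miRNAs known for alternative starts, 11 were measured and 8 had shifted reads. All 8 had a median share above 10%. Of these, miR-133a-3p, miR-142-3p and miR-142-5p had under 1000 reads in the median library, and miR-142-3p rests on 395 reads in 4 libraries and miR-142-5p on 2634 reads in 7. miR-9, miR-221-3p and miR-222 had none. A second list held 10 miRNAs known to be abundant in fat, not the 10 most counted here. All 10 had shifted reads, the median of their shares was 0.176%, and within the list miR-10b and miR-99a alone were above 1%. miR-148a-3p, the most counted miRNA with 7191039 reads and known from adipocyte differentiation, had a median share of 0.0140%.

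MiRNAs of other cells in the samples varied as well. None of the 3 red blood cell miRNAs had a listed shifted read, among 20418 reads of miR-451, 5811 of miR-486 and 323 of miR-144. Nor did the liver miRNA miR-122 with 100122 reads. Counts under 6 are listed at 0, and miR-144 had no listed reads in 12 libraries, so some shifted reads may be hidden. The muscle miRNA miR-133a-3p had a median shifted share of 45.2%, and Large White thick 2 at 33.7%, thick 3 at 34.4% and Hampshire thick 2 at 33.1% were lowest. Those low shares rest on 60, 74 and 44 reads with a lost base. The other muscle miRNA measured, miR-206, had no listed shifted read among 9015. A share of starts within a miRNA does not measure its amount. For amounts in bulk fat, fewer cells of a type and less RNA per cell cannot be told apart. miR-192, of liver and gut, was counted in 4 Hampshire libraries alone and had a median of 38.0%. It held 29984 reads there, and whether it was absent from the other libraries was not tested. Of 4 leukocyte miRNAs, 3 had listed shifted reads. They were miR-142-3p, miR-142-5p and miR-150, the last with 8 of 13120 reads. miR-223, with 147 reads, had none. Of 2 endothelial miRNAs, miR-126-3p had shifted reads and miR-126-5p, with 16625 reads, had none listed.

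Thick and thin fat were compared first. Each start class of a miRNA was tested as a share of that miRNA's reads, with edgeR's quasi-likelihood test and Benjamini-Hochberg adjustment over all classes. A class was called at an adjusted p under 0.05. None of 57 shifted classes was called over all breeds, where 0% of all 184 classes were. At an unadjusted p under 0.05 edgeR had 2. In Pietrain the counts were 0 of 50 with 1 unadjusted, in Large White 0 of 57 with 3, and in Hampshire 0 of 51 with 2, again against 0% of all classes in each. DESeq2 and limma also called none in these 4 comparisons. Without the 2 disputed Large White libraries, 0 of 57 were called over all breeds and 0 of 62 in Large White.

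The shares in the 2 kinds of fat lay close together for several of the named miRNAs. miR-10b had 13.5% ± 0.83 in thick (SD, n = 13) and 13.7% ± 1.16 in thin fat (SD, n = 9), with overlapping ranges. For its lost-base class the fitted log2 difference of thick from thin fat was -0.01 ± 0.05 (SE). For miR-140-3p that value was -0.03 ± 0.02 (SE), for miR-29a -0.05 ± 0.08 and for miR-101 0.07 ± 0.06. The median over the 57 shifted classes was -0.02, against 0.00 over all classes tested. miR-199ab-3p, miR-214-3p, miR-10a-5p and miR-429 were not tested over all breeds, as each was listed at 0 in some libraries. The shifted share of miR-199ab-3p was 25.0% ± 1.61 in thick (SD, n = 8) and 26.5% ± 2.49 in thin fat (SD, n = 7).

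The classes with the smallest unadjusted p are given as values. Over all breeds, miR-28-3p with a lost base stood at 1.86% ± 0.50 in thick and 1.32% ± 0.47 in thin fat (SD, n = 13 and 9, edgeR adjusted p = 0.998). miR-92a with a lost base had 1.08% ± 0.19 in thick and 1.29% ± 0.29 in thin fat. In Pietrain, miR-214-3p with a gained base ran from 37.1% to 38.1% in thick and from 37.7% to 42.7% in thin fat, with an edgeR adjusted p of 0.468. Leaving out Pietrain thin 2, the lowest thin library, brought that class past the threshold. In Hampshire, miR-126-3p with a lost base had a log2 fold change of -0.24 ± 0.07 (SE) and an edgeR adjusted p of 0.989. It passed without Hampshire thick 4. In Large White the smallest p values were those of miR-28-3p with a gained base and of miR-23a with a lost base. The first had 1.18% ± 0.23 in thick and 0.702% ± 0.21 in thin fat (SD, n = 4 each). The second had 0.407% ± 0.04 and 0.543% ± 0.10, and most of its reads also lie inside the leading sequence of miR-23b.

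An F test over the 6 groups asked if thick minus thin fat depended on the breed. No shifted class of 57 was called, 1 had an unadjusted p under 0.05, and 0.543% of all classes were called. That one was miR-126-3p with a lost base (edgeR adjusted p = 0.537). DESeq2 and limma called none either.

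The authors' deposited tables, which test single sequences for thin against thick fat, called few members. In Pietrain they called 1 of 403 members, where 1.9% of all 4680 sequences were called. It was a miR-126-3p sequence with a gained A, at a log2 fold change of 6.97 with SE 1.48 and adjusted p = 0.00038 in the authors' deposited table. Reads of miR-126-3p with a gained A numbered 92 over all 22 libraries, 0.0770% of its reads with 1 gained base. Counts under 6 are listed at 0, so the size of that change is uncertain. The authors' deposited tables called 0 of 636 members in Large White (0% of all sequences) and 0 of 521 in Hampshire (0.0189% of all).

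Breeds differed in more classes. Each breed was deposited as a table of its own, so breed and any difference in the handling of the tables cannot be told apart. Between Hampshire and Pietrain 13 of 57 shifted classes were called (22.8%), 12 higher and 1 lower in Hampshire, where 25% of all classes were called. Between Pietrain and Large White 9 of 57 were called (15.8%), 2 higher and 7 lower in Pietrain, where 16.3% of all classes were called. Between Hampshire and Large White 1 of 57 was called, where 3.8% of all were. In none of the 3 was the share of shifted classes called above the share of all classes called. Without Hampshire thin 1, 1 of only 2 thin libraries of that breed, 4 classes were called between Hampshire and Pietrain, and without Hampshire thin 2 there were 8. Between Pietrain and Large White limma called 4, which were miR-100 and miR-378 with a lost base and miR-26a and miR-99a with a gained base. It did not call the other 5 of the 9, in miR-29a, miR-140-3p, miR-26a (lost base) and miR-148a-3p (both classes). Without both disputed libraries the count between Pietrain and Large White was 8, of which 7 were among the 9, and Hampshire against Large White gave 2. DESeq2 called 14 between Hampshire and Pietrain, 9 between Pietrain and Large White and 2 between Hampshire and Large White. Most of these differences were small. The fitted fold was under 1.5 for 10 of the 13, 6 of the 9 and the 1.

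miR-378 with a lost base was called in all 3 comparisons. Its share ran from 8.38% to 9.97% in Large White, from 9.88% to 10.6% in Pietrain and from 10.9% to 12.1% in Hampshire. The Hampshire libraries did not overlap with those of either other breed, while Pietrain and Large White overlapped. The log2 fold change was 0.26 ± 0.03 (SE) for Hampshire over Large White (edgeR adjusted p = 6.1e-05), 0.14 ± 0.03 over Pietrain (edgeR adjusted p = 0.00646) and 0.12 ± 0.03 for Pietrain over Large White (edgeR adjusted p = 0.00925). The call of Hampshire against Pietrain was lost without Hampshire thin 1. That of Pietrain against Large White was lost in the fit on shifted classes alone and with limma when every miRNA was kept.

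miR-140-3p with its gained U was lowest in Pietrain, with the breed values given above. Hampshire exceeded Pietrain by 0.19 ± 0.03 on the log2 scale (SE, edgeR adjusted p = 0.00029), and Pietrain stood 0.10 below Large White (log2 fold change -0.10 ± 0.03, edgeR adjusted p = 0.0207). The ranges overlapped in both, and the call against Large White was lost with limma, in the fit on shifted classes alone, and without Pietrain thin 1 or Large White thick 2. Against Large White, Hampshire was not called (log2 fold change 0.09 ± 0.03, edgeR adjusted p = 0.122).

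The sister miRNAs miR-100 and miR-99a were both lower in Pietrain than in Large White. miR-100 with a lost base had 1.85% ± 0.14 in Pietrain (SD, n = 7) and 2.40% ± 0.27 in Large White (SD, n = 8), a log2 fold change of -0.37 ± 0.07 (SE, edgeR adjusted p = 0.00109). For miR-99a with a gained base the shares were 2.60% ± 0.19 and 2.98% ± 0.24, and the log2 fold change -0.21 ± 0.05 (SE, edgeR adjusted p = 0.012). miR-29a with a lost base was higher in Pietrain, at 38.8% ± 4.33 against 32.3% ± 4.34 (edgeR adjusted p = 0.044). That call was lost with limma, without the filter on class counts, and in 12 of the 22 fits that left out 1 library.

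miR-26a, which is hosted by genes of the CTDSP family, had few shifted reads, but those with a gained C fell into levels far apart. In Pietrain the gained share was 0 in thick 3 and thick 4 and 0.00778% to 0.0126% in the other 5 libraries, from 10 to 22 reads. In Hampshire it ran from 0.0521% to 0.112%, from 13 to 182 reads. In Large White it was 0.0775% in thick 1, 0.0843% in thick 2, 0.0859% in thick 3 and 0.0819% in thin 1. The other 4 Large White libraries had 0.0105% in thin 2, 0.00976% in thin 3, 0.0109% in thin 4 and 0.00828% in thick 4. Thus 4 Large White libraries lay within the Hampshire range and 4 within the Pietrain range, and the fat labels did not separate them. In the labels' titles the 4 high libraries are numbered 9 to 12 and the 4 low ones 13 to 16, and no batch is named. The 4 that lay low had 125 to 191 reads with a lost base of miR-26a, against 48 to 145 in the 4 that lay high.

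The fitted difference for this class was 3.36 ± 0.66 on the log2 scale between Hampshire and Pietrain (SE, edgeR adjusted p = 0.00101), where the libraries did not overlap. Between Pietrain and Large White it was -2.42 ± 0.63 (SE, edgeR adjusted p = 0.0134), and -1.64 with an edgeR adjusted p of 0.061 without the 2 disputed Large White libraries. It was -1.70 without Large White thin 1 alone. Whether library handling had a part in it was not tested.

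miR-148a-3p showed a similar order at still lower shares. Its gained-C class was listed at 0 in 5 of 7 Pietrain libraries and ran from 0.00910% to 0.0172% in Hampshire, from 12 to 84 reads. In Large White it was 0.0169% in thin 1, 0.0133% in thick 3 and 0.0101% in thick 2. The other 5 Large White libraries, thick 1 among them, were between 0 and 0.00318%. The class with a lost base ran from 0.00423% to 0.0133% in Pietrain and from 0.0131% to 0.0207% in Hampshire (log2 fold change 1.19 ± 0.22, SE, edgeR adjusted p = 0.000621). It was lower in Pietrain than in Large White by a log2 fold change of -0.76 ± 0.21 (SE, edgeR adjusted p = 0.0172), a call lost with limma and without Pietrain thin 3. With so few reads and counts under 6 listed at 0, the size of the gained-C difference is uncertain. miR-26a with a lost base was lower in Pietrain than in Large White by a log2 fold change of -0.47 ± 0.12 (SE, edgeR adjusted p = 0.0144), a call lost with limma and with sequences of a mean count of at least 50.

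The class of miR-126-3p with a gained base was the 1 called lower in Hampshire than in Pietrain, at 6.76% ± 0.76 against 7.70% ± 0.49 (SD, n = 7 each, edgeR adjusted p = 0.027). Its class with a lost base, named after its value was seen, was higher in Hampshire at 5.43% ± 0.54 against 5.02% ± 0.35 (edgeR adjusted p = 0.0191). The 2 Hampshire thin libraries stood at 6.07% and 6.13%, while Hampshire thick had 5.16% ± 0.34 (SD, n = 5) and Pietrain thick 5.12% ± 0.40 (SD, n = 4). Both pairs of ranges overlapped. Neither class was called without Pietrain thin 1 or either Hampshire thin library, nor the gained class without Pietrain thick 2. miR-24-1-5p, the other arm of the miR-24 hairpin, had 47.1% ± 5.51 in Hampshire and 37.5% ± 2.61 in Pietrain (edgeR adjusted p = 0.0112), a call lost without Hampshire thin 1.

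Between Hampshire and Large White, classes of miR-151-3p and let-7c had the smallest p values after those above. miR-151-3p with 2 gained bases had 0.429% ± 0.13 in Hampshire (SD, n = 7) and 0.654% ± 0.14 in Large White (SD, n = 8), with an edgeR adjusted p of 0.108. It was called by DESeq2 and without the 2 disputed libraries. let-7c with a gained base had 0.0958% ± 0.03 and 0.147% ± 0.02, with an edgeR adjusted p of 0.122. The most counted sequence of that let-7c class also differs from the leading sequence further along, where the member rule made no comparison. The name may therefore pool different miRNAs. Whether the let-7c share follows their mix rather than the start was not tested.

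By list, calls stood as follows. Of 17 tested classes from 8 miRNAs abundant in fat, 5 were lower in Pietrain than in Large White, where 16.3% of all classes were called, and 5 were higher in Hampshire than in Pietrain, where 25% were. In each comparison the 5 came from 3 miRNAs, with both classes of miR-26a and of miR-148a-3p and 1 class of miR-99a or let-7a. The median log2 fold change of the list was -0.37 and 0.35, against -0.15 and 0.08 over all shifted classes tested. Of 8 tested classes from 5 miRNAs known for alternative starts, 1 was lower in Pietrain than in Large White, and in Hampshire 2 were higher and 1 lower than in Pietrain, against the same 16.3% and 25% of all classes. Pietrain is shared by these comparisons.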

How the data were processed

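Small RNA libraries from pig subcutaneous fat were sequenced over 36 cycles. Among the tools and builds listed, without roles, in the submitters' processing notes are DESeq2, FastQC, bcl2fastq and Sscrofa10.2. The aligner and counting tool are not given in the sources used here. The authors deposited whole-number counts per sequence and miRNA name, 1 table per breed, and tables with log2 fold changes, their standard errors and adjusted p-values, copied only where the authors' deposited table is named. The authors' deposited tables also hold a mean normalized signal and a test statistic, a score, per sequence, neither used here. From the deposited counts, 22 columns were used. Entries without a miRNA name (80 of 8489, 0.0480% of reads) were left out.

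The members, lists and named miRNAs were chosen with earlier results of these data known. Reads were summed per miRNA and start (usual, 1 to 3 bases lost, 1 to 3 gained, other). Shares are percent of the miRNA's reads in a library. edgeR 4.0.16 (robust quasi-likelihood, R 4.3.3) used the log of that total as offset, a minimum count of 10 and Benjamini-Hochberg adjustment over all classes, which within a miRNA are not independent. In breed comparisons both fat classes of a breed had equal weight. After the data were seen, classes equal to all reads of their miRNA in every library, and miRNAs at 0 in any library of a fit, were left out of testing. The SE is the log2 fold change divided by the root of F. The named miRNAs are the 12 with the highest median share and the 5 with most shifted reads among those with at least 1000 reads in the median library. In each comparison the 6 shifted classes of smallest p per direction among those called were named, or the 3 of smallest unadjusted p where fewer than 3 passed, of which the text describes the leading ones. Alternatives used DESeq2 1.42.0, limma 3.58.1 (pseudocount 0.5), other filters and left-out libraries. The tests were also run on simulated counts, at a single fixed spread and with changes larger than most of the folds called here. That run does not show how they perform on folds under 1.5. Sequences are those of the deposited tables, and totals limit precision as PCR reads are not independent molecules.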

Additional observations from a re-analysis of the deposited data

Results flagged for a closer look

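Dixon's ratio was applied to 45 sets of named miRNA shares, each a miRNA in a group of 4 or more libraries, and chance alone would mark about 1 set in 20. In Large White thin fat, miR-140-3p had a shifted share of 46.33% in thin 2, while the other 3 libraries lay between 48.75% and 49.18%. In Hampshire thick fat, miR-378 had 12.14% in thick 4, while the other 4 lay between 10.99% and 11.29%.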

How the results depend on the processing

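No paired analysis was possible because the labels pair no libraries. None of the fitted differences of the named classes changed sign under any alternative that gave a value. Counts of shifted classes called differed from those reported by over 1.5 times in these cases. Between Pietrain and Large White (9 reported), limma called 4, and 2 with every miRNA kept, an alternative added after seeing the data. Between Hampshire and Large White (1 reported), DESeq2 called 2, sequences with a mean count of at least 50 gave 3, the fit without both disputed libraries 2, and the fit on shifted classes alone, also added later, 2. Between Hampshire and Pietrain (13 reported), summing all shifted starts of a miRNA left 8. The test of the fat difference between breeds called 1 class with sequences of a mean count of at least 50, miR-126-3p with a lost base, and 0 as reported. Leaving out each library in turn gave 0 to 0 classes for thick against thin fat over all breeds, 0 to 1 in Pietrain, 0 to 0 in Large White, 0 to 1 in Hampshire and 0 to 0 for the fat difference between breeds. The same gave 6 to 10 for Pietrain against Large White, 1 to 3 for Hampshire against Large White and 4 to 14 for Hampshire against Pietrain. The count of 4 came without Hampshire thin 1 and 8 without Hampshire thin 2, which leave 1 thin library there, assumed to vary like the other groups. The count of 3 came without Large White thick 1, and 2 without Pietrain thick 4 or Hampshire thick 1. The cause was not tested. Median shares of miR-214-3p, miR-7134-3p and miR-23b moved to 32.7%, 3.33% and 3.83% with sequences of a mean count of at least 50. Counts under 6 are listed at 0, which limits shares of a few reads.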

Other observations

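Several miRNAs below 1000 reads in the median library had large shifted shares. Among the abundant ones the highest median was 46.9%, for miR-140-3p. miR-505 gained 1 or 2 bases in a median 62.9% of its reads (range 40.0% to 75.0%, n = 22), from a total of 1820 reads. miR-145-3p, of smooth muscle, lost its first base in a median 40.8% of reads in 18 libraries. miR-24-1-5p had a median of 40.7%, while miR-24-3p of the same hairpin had 1.09% in the median library and was lower in 22 of 22. miR-142-3p, of leukocytes, had a median of 52.3% in the 4 libraries where it was counted.

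Among abundant miRNAs with members, 11 are named as 3p arms, 10 as 5p arms, and 26 carry no arm in the name. Of the 3p arms 8 had a median shifted share of at least 1%, and of the 5p arms 2. The miRNAs whose names give no arm could change this comparison.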
